A study of Mus musculus with 9 samples.

Results

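The genes described here are 32 mouse germline genes, most of which are active in sperm and egg precursors and silent in body cells, where their promoters are kept shut by DNA methylation. They were chosen as a list of gene names, with earlier results of these data known, and all 32 had a row among the 24100 genes of the count table. For 31 of them the symbol matched, and Tex13 was matched as a synonym of Tex13b. Poly(A) RNA was sequenced from cells labelled neural and grown out of mouse embryonic stem cells (mESCs). The cells stably expressed a PiggyBac transgene for an HA-tagged histone H4, which was wild type in the H4WT group (PiggyBAC_H4WT_3HA). In the other groups lysine 91 of the tagged histone was replaced by arginine (PiggyBAC_H4K91R_3HA, the H4K91R group) or glutamine (PiggyBAC_H4K91Q_3HA, the H4K91Q group). Each group had 3 libraries, and all 9 came from cells that carried such a transgene. The promoter of the transgene, the state of the cells' own histone H4 genes, and whether replicates are separate lines or separate differentiations are not given in the sources at hand. The p-values thus measure the spread between these libraries, which may be technical.

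In mouse development the de novo DNA methyltransferases DNMT3A and DNMT3B methylate CpG-rich germline promoters around implantation, and DNMT1 with UHRF1 copies the methylation at each cell division. A non-canonical Polycomb complex, PRC1.6, binds many of the same promoters through E2F6, which reads E2F sites, and through MGA with MAX, which read E-boxes. Loss of either layer is known to release such genes in embryonic stem cells, so they serve as sensitive reporters of silencing. The histone mutants were compared with H4WT to ask which genes change with their expression.

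The promoter sequences of the members were then examined. The members were chosen by name, and whether knowledge of their promoters shaped the list is not known, so the shares below describe the list. RefSeq promoter windows on GRCm38.p6, from 250 bases before to 50 bases after a start site, were available for 30 of the 32 members and 27025 genes in all, and the first listed window of a gene was used. The 6-base E-box CACGTG, the same on both strands, lay in 13 of the 30 member windows (43.3%), against 7.24% of all windows and 9.91% of the windows of tested genes. The 7-base E2F word GCGGGAA, or TTCCCGC on the other strand, lay in 9 member windows (30.0%), against 4.66% of all windows and 8.44% of those of tested genes. At least 1 of the words was in 17 member windows (56.7%, against 11.4% of all), both were in 5 (16.7%, against 0.463%), and no E-box overlapped an E2F word there. The 7 sequences below are shown because the changes in expression described further on turn on these genes. Each is the 250 bases before the start site, 5′ to 3′ on the strand of the gene, with E-boxes and E2F words in capitals.
Ddx4, chr13:112652311-112652560, minus strand: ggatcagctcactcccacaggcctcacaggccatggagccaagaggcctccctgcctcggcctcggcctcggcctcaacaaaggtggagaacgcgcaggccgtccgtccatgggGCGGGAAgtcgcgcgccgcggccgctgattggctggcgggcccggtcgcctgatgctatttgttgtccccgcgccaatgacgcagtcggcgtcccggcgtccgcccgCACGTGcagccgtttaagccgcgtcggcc
Slc25a31, chr3:40708621-40708870, plus strand: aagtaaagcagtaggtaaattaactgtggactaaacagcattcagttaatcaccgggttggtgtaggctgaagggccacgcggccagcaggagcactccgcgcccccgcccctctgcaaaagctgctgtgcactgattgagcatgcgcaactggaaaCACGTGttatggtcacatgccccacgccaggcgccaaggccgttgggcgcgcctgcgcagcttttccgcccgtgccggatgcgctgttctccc
Taf7l, chrX:134476491-134476740, minus strand: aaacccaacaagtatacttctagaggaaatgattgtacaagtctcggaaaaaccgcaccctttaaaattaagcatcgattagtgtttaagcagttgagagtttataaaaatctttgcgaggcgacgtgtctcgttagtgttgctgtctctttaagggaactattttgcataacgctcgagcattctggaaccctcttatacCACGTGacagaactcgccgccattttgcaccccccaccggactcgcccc
Stag3, chr5:138280259-138280508, plus strand: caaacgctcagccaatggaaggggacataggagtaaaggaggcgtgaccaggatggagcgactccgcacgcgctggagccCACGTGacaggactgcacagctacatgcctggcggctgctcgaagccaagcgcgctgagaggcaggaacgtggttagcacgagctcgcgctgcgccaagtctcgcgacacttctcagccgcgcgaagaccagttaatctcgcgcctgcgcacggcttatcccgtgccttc
Brdt, chr5:107330944-107331193, plus strand: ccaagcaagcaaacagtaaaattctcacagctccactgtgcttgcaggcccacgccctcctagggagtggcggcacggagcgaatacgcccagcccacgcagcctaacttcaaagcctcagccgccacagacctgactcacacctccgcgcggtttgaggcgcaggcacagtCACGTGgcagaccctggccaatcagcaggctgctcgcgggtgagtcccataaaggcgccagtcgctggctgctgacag
Rpl10l, chr12:66284402-66284651, minus strand: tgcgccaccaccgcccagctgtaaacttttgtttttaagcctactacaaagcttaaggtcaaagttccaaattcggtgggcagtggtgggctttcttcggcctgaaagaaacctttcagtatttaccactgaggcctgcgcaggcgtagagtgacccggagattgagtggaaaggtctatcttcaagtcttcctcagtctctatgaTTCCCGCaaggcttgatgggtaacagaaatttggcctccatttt
Rhox5, chrX:37754358-37754607, plus strand: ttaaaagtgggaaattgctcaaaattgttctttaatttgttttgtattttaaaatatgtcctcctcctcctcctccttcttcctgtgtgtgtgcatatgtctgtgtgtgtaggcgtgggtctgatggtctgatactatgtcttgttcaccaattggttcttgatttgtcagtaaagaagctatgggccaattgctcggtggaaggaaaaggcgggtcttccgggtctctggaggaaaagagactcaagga
Ddx4 holds both words, Slc25a31, Taf7l, Stag3 and Brdt hold an E-box, Rpl10l holds an E2F word, and Rhox5 holds neither in this stretch. In Stag3 an E2F word crosses the start site, and in Slc25a31 one begins 20 bases into the transcript. A match says only that these letters are present. For Ddx4, Taf7l, Stag3 and Brdt the start site used lies inside the annotated span of the gene, furthest inside for Stag3, and other start sites were not examined.

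CpG density was lower in most of the X-linked promoters than in most of the autosomal ones. The median ratio of observed to expected CpG was 0.721 over the 30 member windows, 0.389 over all genes and 0.752 over tested genes. The 22 autosomal members had a median of 0.752, with 19 of them at 0.6 or above, and the 22 held 10 to 38 CpG per 300 bases. The 8 X-linked members had a median of 0.354, and 2 of them, Taf7l (1.03) and Tex13 (0.730), reached 0.6. Of the 8, only Taf7l had an E-box and none had the E2F word. Ddx4 had 38 CpG in its window and Rhox5 had 5.

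**Figure D1:**
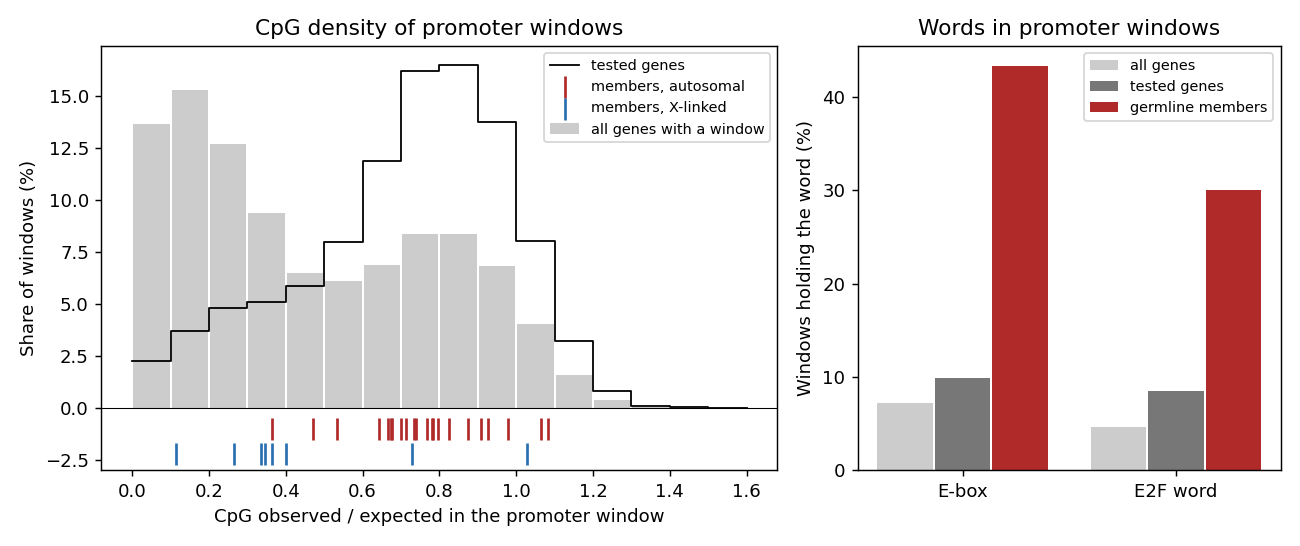
Left, the ratio of observed to expected CpG in 300-base promoter windows (x axis) against the share of windows in percent (y axis), with bars for all genes, a line for tested genes, and a tick below zero for each member (red on autosomes, blue on the X chromosome). Right, the percent of windows that hold each word, where the members stand at 43.3% for the E-box and 30.0% for the 7-base E2F word, above both sets of other genes. The 6-base form of the E2F word is not drawn.

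Total counts ran from 8970553 to 28887501 per library. A count of 0 allows up to 3 counts, which corresponds to 0.111 to 0.367 CPM (counts relative to the library's total, with totals scaled by edgeR's TMM factors), a limit that covers counting error only. More than 3 counts were found for 24, 29 and 26 of the 32 members in H4WT replicates 1, 2 and 3, for 26, 26 and 22 in H4K91R, and for 27, 30 and 28 in H4K91Q. The H4K91R library with 22 had one of the lower totals, 9743050 counts. The 32 genes together gave 226 to 241 CPM in H4WT, 174 to 204 in H4K91R and 202 to 239 in H4K91Q, and Rhox5 alone made up 61.9% to 68.5% of their counts in a library. Without Rhox5 the sums were 79.5 to 84.6, 61.5 to 66.2 and 75.8 to 88.0 CPM, so that every H4K91R library lay below every library of the other groups.

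The cultures were not purely neural by their RNA. All 10 neural markers checked (Tubb3, Dcx, Sox2 and others) were above 3 counts in every library, and their summed level was 422 to 436 CPM in H4WT, 1240 to 1476 in H4K91R and 955 to 1048 in H4K91Q. Nes, the largest of them in H4WT, went the other way, averaging 168, 154 and 119 CPM, while the others averaged higher in both mutants. Smooth muscle and mesenchyme markers summed to 9514 to 9669, 5885 to 7124 and 5871 to 6543 CPM, and trophoblast markers to 41.5 to 46.6, 30.0 to 36.4 and 44.0 to 54.3 CPM, in the same order of groups. The smooth muscle and mesenchyme markers did not move together. Acta2, of smooth muscle, averaged 2479, 315 and 245 CPM, while Col3a1 and Pdgfra, of mesenchyme, averaged 2846, 3734 and 3373 CPM and 524, 650.4 and 651 CPM. Pluripotency markers summed to 299 to 386 CPM in H4WT, 193 to 217 in H4K91R and 329 to 476 in H4K91Q. These markers did not all move together either. Klf4, the largest part of the sum, averaged 174, 143 and 142 CPM, and Esrrb averaged 3.68, 4.18 and 13.5 CPM. The pluripotency sum was lowest in H4K91R, and so was the germline sum without Rhox5. With Rhox5 the germline sums of H4K91R and H4K91Q overlapped. Primordial germ cell markers that are not members, 10 genes led by Kit and Sall4, which other cells share, summed to 254 to 290, 277 to 306 and 277 to 302 CPM. Kit and Sall4 set these sums, and lower markers moved otherwise. Dppa3, also on the pluripotency list, averaged 0.238, 0.0853 and 2.86 CPM. Prdm1 averaged 0.848, 1.11 and 2.84 CPM and Tfap2c 4.75, 3.35 and 8.6 CPM, so all of these were highest in H4K91Q. Kit and Tfap2a were highest in H4K91R, and Sall4 in H4WT. Among the 10 markers, Nanos2 had at most 2 counts in any library and Prdm14 at most 9. Spermatid and oocyte markers, 11 genes, summed to 11.1 to 12.2, 13.0 to 15.5 and 13.6 to 14.8 CPM, with Prm2, Tnp1, Tnp2 and Zp2 at 0 counts in H4WT, Bmp15, Tnp1, Tnp2 and Zp2 in H4K91R, and Oosp1, Prm2 and Tnp1 in H4K91Q. Gdf9 made up most of these sums, averaging 11.1, 13.1 and 12.9 CPM. In bulk RNA, fewer cells of a type and less RNA per cell cannot be told apart, and the part of these marker shifts in the results below was not tested.

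Of the 32 germline genes 26 had enough counts to be tested, of which 9 fell and 2 rose in H4K91R cultures, and 1 fell and 4 rose in H4K91Q cultures. The share that fell in H4K91R was near that of all genes, and in H4K91Q both shares were below those of all genes. In H4K91R against H4WT 9 of them fell (34.6%) and 2 rose (7.69%), where over all 14761 tested genes 25.1% fell and 20.9% rose, 46% in all (edgeR quasi-likelihood test, Benjamini-Hochberg adjusted p below 0.05 over all genes). Ddx4, Stk31, Mov10l1, Piwil2, Tex11, Taf7l, Rhox5, Slc25a31 and Xlr3a fell, and Stag3 and Brdt rose. In H4K91Q against H4WT 1 member fell (3.85%), Ddx4, against 23.8% of all genes. There 4 members rose (15.4%), Stag3, Brdt, Sycp3 and Rpl10l, against 22.5% of all genes, which makes 5 of 26 called beside 46.3% of all genes. Between the mutants, 4 members were higher in H4K91Q than in H4K91R (15.4%), Ddx4, Piwil2, Tex11 and Rpl10l, against 2.37% of all genes. None was lower by edgeR, DESeq2 or limma-voom or at an unadjusted edgeR p below 0.05, against 2.78% of all genes, where 5.16% differed in either direction. The median log2 change of the tested members was -0.48 in H4K91R and -0.24 in H4K91Q, beside -0.03 and 0.01 over all tested genes. In H4K91Q the log2 change was below 0 for 16 of the 26 and above 0 for 10. Because members with few counts in every group could not be tested, these counts describe the 26 and not the whole list.

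Called changes reached 2-fold in 3 of the 26 tested members in H4K91R (Piwil2, Mov10l1 and Taf7l), against 2032 of all 14761 tested genes. In H4K91Q they did so in 0 of the 26, against 1853 of the 14761. Between the mutants the numbers were 2 of the 26 (Piwil2 and Rpl10l) and 151 of the 14761. The libraries of H4K91R lay wholly below those of H4WT for 12 of the 26 members, beside 30.1% of all tested genes, and wholly above for 2, beside 25% of all. For H4K91Q they lay below for 6, beside 27.7%, and above for 4, beside 27.4%. Between the mutants 9 members were higher in every H4K91Q library, beside 12.5% of all genes, and 0 were lower, beside 12.8%. The comparisons with H4WT share the same 3 H4WT libraries, so the changes in the mutants are not independent of each other. Leaving out single libraries changed the calls between the mutants most. Without H4K91R replicate 2 or H4K91Q replicate 2 no member was called by edgeR, without H4K91R replicate 1 only 1 was, and without H4WT replicate 2, H4K91R replicate 3 or H4K91Q replicate 1 the number was 2. Over all genes the 761 calls between the mutants became 188 without H4K91R replicate 2, 202 without H4K91Q replicate 2, 298 without H4K91Q replicate 1 and 410 without H4K91R replicate 1. In H4K91Q against H4WT, 2 members rose and 2 fell without H4K91Q replicate 1, and the 5 called members became 3 without H4WT replicate 1, H4K91R replicate 2, or H4K91Q replicate 2 or 3. With scaling by library size alone the median over all genes moved up by 0.18 in H4K91R and by 0.17 in H4K91Q. Over all genes that turned 3092 risen and 3705 fallen into 5031 and 2013 in H4K91R, and 3314 and 3516 into 5557 and 2069 in H4K91Q. Among the members it gave 2 risen and 7 fallen in H4K91R and 4 risen and 0 fallen in H4K91Q.

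**Figure D2:**
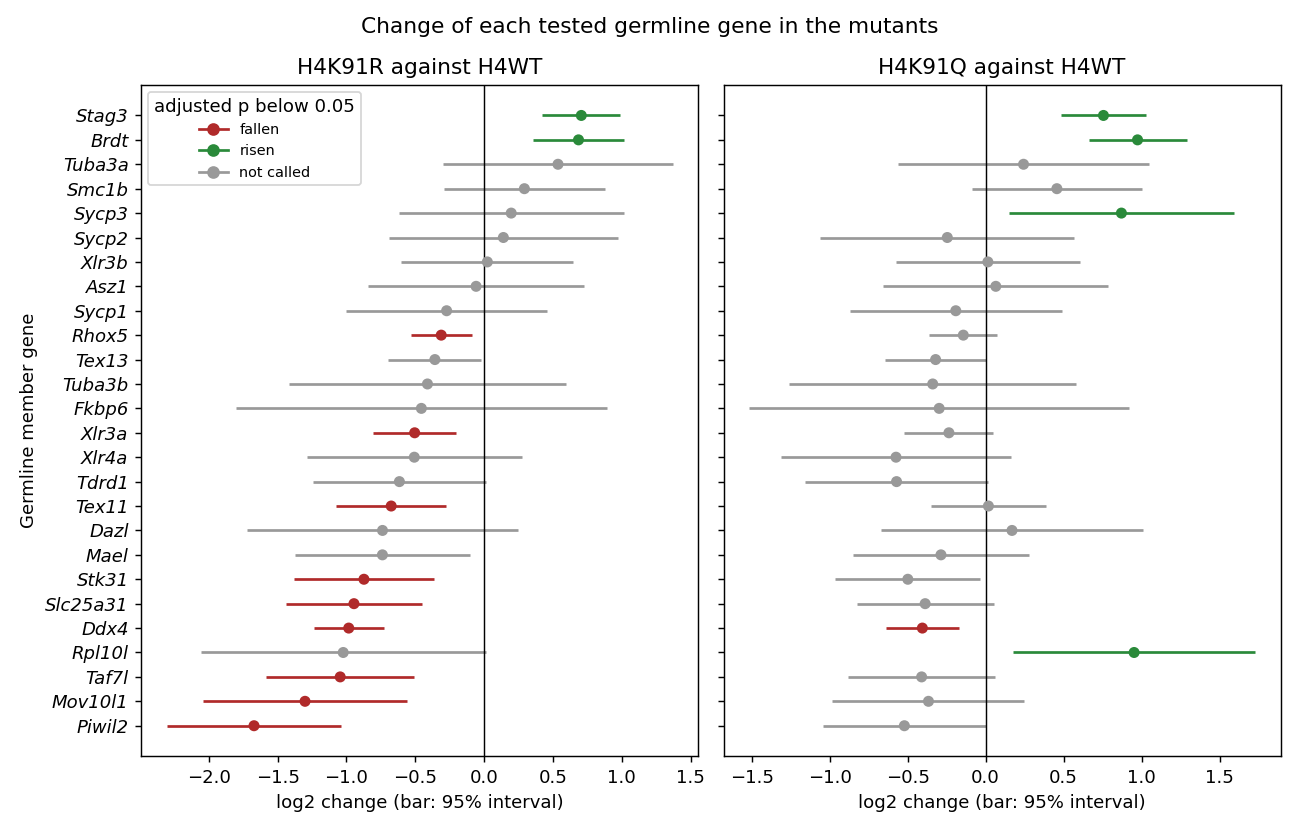
Log2 change (x axis) of the 26 tested members (y axis, in the order of their change in H4K91R) in H4K91R against H4WT (left) and H4K91Q against H4WT (right). Points are estimates, bars 95% intervals, and colour marks genes that fell (red), rose (green) or were not called (grey), with Piwil2 lowest at -1.67 in H4K91R and Stag3 and Brdt to the right of 0 in both.

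Among the genes of germ cell RNA regulation, Ddx4 fell in both mutants and further in H4K91R. Ddx4 encodes the RNA helicase VASA of germ granules (Entrez 13206, chromosome 13, 112598333 to 112652633). It stood at 12.7, 12.3 and 13.3 CPM in H4WT replicates 1, 2 and 3, 6.16, 6.29 and 6.99 in H4K91R and 9.43, 10.1 and 9.37 in H4K91Q. The 3 groups did not overlap, with H4K91Q between the other two. The log2 change was -0.98 ± 0.12 (SE) in H4K91R (adjusted p = 1.85e-05, edgeR) and -0.41 ± 0.11 in H4K91Q (adjusted p = 0.00795), and H4K91Q exceeded H4K91R by 0.58 ± 0.11 (adjusted p = 0.0154). Ddx3x, a helicase of the same DEAD-box class in body cells, fell in both mutants (-0.38 ± 0.06 and -0.26 ± 0.06, adjusted p = 2.27e-04 and 0.00372). For Ddx4 the call in H4K91Q ended with library size scaling (adjusted p = 0.0854). The call between the mutants ended without H4K91R replicate 1 or 2 (0.0596 and 0.0669) or H4K91Q replicate 2 (0.0694).

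Stk31, a Tudor-domain protein of germ cells (Entrez 77485, chromosome 6, 49395506 to 49469506), stood at 3.61, 3.48 and 2.82 CPM in H4WT, 2.19, 1.42 and 1.77 in H4K91R and 2.83, 2.09 and 2.11 in H4K91Q. Every H4K91R library lay below every H4WT library, and H4K91Q overlapped both. Stk31 fell by 0.87 ± 0.24 on the log2 scale in H4K91R (adjusted p = 0.00849, edgeR). Its log2 change in H4K91Q was -0.50 ± 0.21 (adjusted p = 0.0744), and with the replicate number as a block the adjusted p was 0.0432 over all libraries and 0.0481 over the compared ones. Dazl, an RNA-binding protein that promotes translation in germ cells (Entrez 13164, chromosome 17, 50279393 to 50293620), stood at 2.65, 1.33 and 0.857 CPM in H4WT, 0.806, 1.26 and 0.689 in H4K91R and 1.84, 2.34 and 0.937 in H4K91Q. All 3 groups overlapped. Its log2 change was -0.74 ± 0.46 in H4K91R (95% interval -1.72 to 0.25, adjusted p = 0.207, edgeR) and 0.17 ± 0.39 in H4K91Q (-0.67 to 1.01, adjusted p = 0.748).

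The piRNA pathway, in which PIWI proteins loaded with small RNAs silence transposons in the germ line, held the member that fell furthest among the 26 tested. Of its 6 members, all tested, Piwil2 and Mov10l1 fell in H4K91R. Piwil2, a PIWI protein (Entrez 57746, chromosome 14, 70372477 to 70436898), stood at 1.8, 2.37 and 3.06 CPM in H4WT, 0.691, 0.708 and 0.886 in H4K91R and 1.8, 1.35 and 1.87 in H4K91Q. All H4K91R libraries were below all others. Piwil2 fell by 1.67 ± 0.29 on the log2 scale in H4K91R (adjusted p = 4.45e-04, edgeR). Its change in H4K91Q was -0.52 ± 0.24 (adjusted p = 0.0945), and the mutants differed by 1.15 ± 0.29 (adjusted p = 0.0413). That difference lay near the threshold, and 10 of 19 alternatives, among them DESeq2 (0.0868), ended its call. Ago2, the Argonaute relative of PIWI proteins in body cells, fell in both mutants (-0.73 ± 0.17 and -0.83 ± 0.17, adjusted p = 0.00378 and 0.00157).

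Mov10l1, an RNA helicase that feeds precursor RNAs into the pathway (Entrez 83456, chromosome 15, 88982891 to 89055152), stood at 1.2, 1.19 and 1.59 CPM in H4WT, 0.633, 0.551 and 0.295 in H4K91R and 0.858, 1.1 and 1.05 in H4K91Q. The 3 groups did not overlap, and the lowest library, H4K91R replicate 3, held 3 counts. Mov10l1 fell by 1.30 ± 0.34 on the log2 scale in H4K91R (adjusted p = 0.00744, edgeR), and its change in H4K91Q was -0.37 ± 0.28 (adjusted p = 0.314). Its relative in body cells, Mov10, had a change of -0.02 ± 0.07 in H4K91R (adjusted p = 0.85).

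The other 4 piRNA members were not called. Mael, the nuage protein maelstrom, stood at 1.68, 1.67 and 1.84 CPM in H4WT, 0.806, 1.49 and 0.788 in H4K91R and 1.5, 1.3 and 1.41 in H4K91Q, with both mutants below H4WT in every library. Its change in H4K91R, -0.74 ± 0.29, missed the threshold (adjusted p = 0.0553, edgeR), passed it with limma-voom (0.0417) and passed it without H4K91R replicate 2 (0.0140). Tdrd1, a Tudor-domain scaffold of PIWI proteins, stood at 2.04, 2.0 and 3.31 CPM in H4WT, 1.84, 1.1 and 1.58 in H4K91R and 1.8, 1.64 and 1.23 in H4K91Q. Its changes were -0.62 ± 0.29 and -0.57 ± 0.27 (adjusted p = 0.102 and 0.105), also with no overlap with H4WT. Tdrd3, a Tudor-domain relative in body cells, rose in both mutants (0.30 ± 0.08 and 0.36 ± 0.08, adjusted p = 0.00914 and 0.0030). Asz1, a nuage protein, was at 0.721, 0.926 and 0.857, then 0.633, 0.865 and 1.08, then 0.943, 1.15 and 0.586 CPM in the same order of groups, with overlap between all groups. Fkbp6, a co-chaperone of the pathway, was at 0.361, 1.0 and 0.367, then 0.518, 0.708 and 0.295, then 0.257, 1.15 and 0.352 CPM, close to the detection limit in several libraries. The 95% intervals of the log2 change in H4K91R were -0.84 to 0.73 for Asz1 and -1.80 to 0.89 for Fkbp6, and that of Fkbp6 includes a fall of 1.

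**Figure D3:**
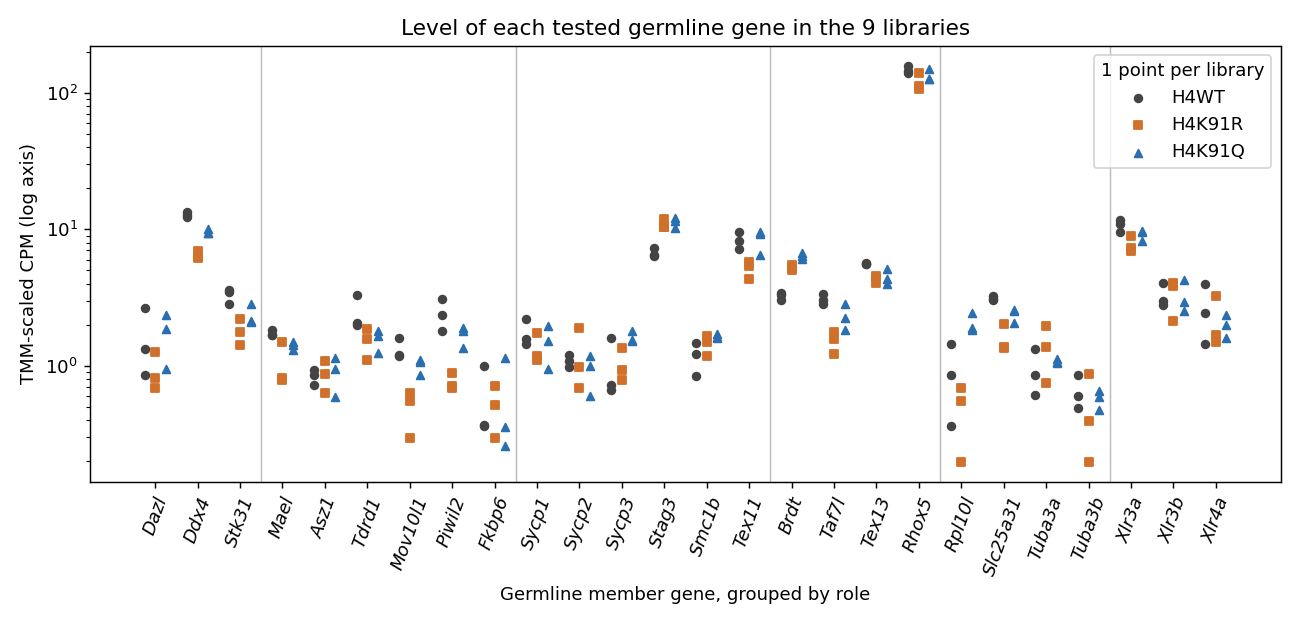
TMM-scaled CPM on a log axis (y) for the 26 tested members (x, separated by role), with 1 point per library in H4WT (circles), H4K91R (squares) and H4K91Q (triangles). Stag3 and Brdt are higher in both mutants than in H4WT, Ddx4 lies in 3 separate bands, and levels of different genes are not comparable because CPM is not scaled for transcript length.

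Among the proteins of the meiotic chromosome axis, Stag3 rose in both mutants. It encodes the meiosis-specific cohesin subunit (Entrez 50878, chromosome 5, 138272514 to 138312397). Stag3 stood at 7.33, 6.41 and 6.49 CPM in H4WT, 10.4, 11.9 and 10.4 in H4K91R and 10.2, 12.2 and 11.6 in H4K91Q. All 6 mutant libraries lay above the 3 H4WT libraries, and the mutants overlapped. The log2 change was 0.71 ± 0.13 in H4K91R (adjusted p = 6.58e-04, edgeR) and 0.76 ± 0.13 in H4K91Q (adjusted p = 3.28e-04), and the 95% interval of the difference between the mutants was -0.21 to 0.31. Its relatives in body cells, Stag1 and Stag2, had log2 changes of -0.14 ± 0.08 and -0.07 ± 0.08 in H4K91R and -0.06 ± 0.08 and 0.05 ± 0.08 in H4K91Q, none of them called.

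Tex11, an X-linked protein that promotes meiotic synapsis and recombination (Entrez 83558, chromosome X, 100838648 to 101059639), stood at 9.5, 8.26 and 7.23 CPM in H4WT, 5.75, 5.35 and 4.33 in H4K91R and 9.52, 9.17 and 6.45 in H4K91Q. H4K91R lay below both other groups, which overlapped. Tex11 fell by 0.67 ± 0.19 on the log2 scale in H4K91R (adjusted p = 0.00924, edgeR), and its change in H4K91Q was 0.02 ± 0.17 (adjusted p = 0.941). The mutants differed by 0.69 ± 0.18 (adjusted p = 0.0416), near the threshold, and 10 of 19 alternatives ended that call, among them thinning to equal totals (0.202).

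Sycp3, a protein of the lateral elements of the synaptonemal complex (Entrez 20962, chromosome 10, 88459587 to 88473236), stood at 0.721, 0.667 and 1.59 CPM in H4WT, 0.921, 1.34 and 0.788 in H4K91R and 1.8, 1.54 and 1.52 in H4K91Q. An H4WT library, replicate 3, overlapped H4K91Q. Sycp3 rose by 0.87 ± 0.33 in H4K91Q (adjusted p = 0.0467, edgeR), and 12 of 19 alternatives ended the call, from DESeq2 (0.155) to the fit without H4WT replicate 2 (0.331) and the replicate block over all libraries (0.0591), while the block within H4WT and H4K91Q kept it (0.0417). Its exons overlap those of Chpt1 on the opposite strand in the GENCODE M21 annotation, and 46.5% of its 31-base words also occur in Chpt1 transcripts, so its counts are uncertain. Chpt1 itself, at 22.3, 21.3 and 26.1 CPM on average in H4WT, H4K91R and H4K91Q, had a change of 0.24 ± 0.10 in H4K91Q (adjusted p = 0.0616).

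The other synaptonemal complex and cohesin members were not called in any comparison. Sycp1, the central filament protein, was at 1.56, 1.44 and 2.2 CPM in H4WT, 1.73, 1.1 and 1.18 in H4K91R and 0.943, 1.94 and 1.52 in H4K91Q. Sycp2, a lateral element protein, was at 1.2, 1.07 and 0.98, then 0.978, 1.89 and 0.689, then 0.986, 0.598 and 1.17 CPM in the same order. Smc1b, a meiotic cohesin subunit, was at 0.842, 1.22 and 1.47, then 1.5, 1.65 and 1.18, then 1.63, 1.69 and 1.58 CPM. For Sycp1 and Sycp2 all groups overlapped. For Smc1b all H4K91Q libraries lay above H4WT, and its change there was 0.46 ± 0.25 (adjusted p = 0.158, edgeR). Its relative in body cells, Smc1a, had a change of 0.03 ± 0.07 in H4K91Q. The 95% intervals in H4K91R were -1.0 to 0.46 for Sycp1, -0.69 to 0.97 for Sycp2 and -0.29 to 0.88 for Smc1b.

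Hormad1, a meiotic axis protein that marks unsynapsed chromosomes (Entrez 67981, chromosome 3, 95559677 to 95587863), was too low for the test and had its fewest counts in H4K91R. It had 2, 14 and 4 counts in H4WT, 0, 1 and 1 in H4K91R and 7, 16 and 6 in H4K91Q. Only H4K91Q exceeded 3 counts in all of its libraries, and every H4K91R library was at or below 1 count. The pooled ratio of H4K91R to H4WT was 0.108, with a 95% exact interval of 0.0122 to 0.445 that covers counting error only. When no filter on low counts was applied, edgeR gave an adjusted p of 0.0124 for that comparison, 0.0374 for H4K91Q against H4K91R and 0.916 for H4K91Q against H4WT. Of its 31-base words, 36.3% are shared with other genes, mostly the annotated gene Gm15529. Its relative Hormad2 had 1, 8 and 2, then 2, 3 and 3, then 2, 4 and 4 counts, and its pooled ratio of H4K91R to H4WT was 0.786 (0.274 to 2.14).

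Among the transcription and chromatin members, Brdt rose in both mutants and Taf7l fell in H4K91R. Brdt, a testis bromodomain protein that reads acetylated histone H4 (Entrez 114642, chromosome 5, 107331116 to 107387061), stood at 3.01, 3.3 and 3.43 CPM in H4WT, 5.01, 5.27 and 5.51 in H4K91R and 6.73, 6.08 and 6.39 in H4K91Q. The 3 groups did not overlap, with H4K91Q highest. The log2 change was 0.69 ± 0.15 in H4K91R (adjusted p = 0.00256, edgeR) and 0.97 ± 0.15 in H4K91Q (adjusted p = 1.34e-04), and the difference between the mutants, 0.29 ± 0.13, was not called (adjusted p = 0.228). Brd2 and Brd3, relatives in body cells, had changes of -0.06 ± 0.06 and 0.23 ± 0.06 in H4K91R and -0.10 ± 0.06 and 0.20 ± 0.06 in H4K91Q, and Brd3 rose in both (adjusted p = 0.00608 and 0.0131, edgeR).

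Taf7l, a testis subunit of the general transcription factor TFIID encoded on the X chromosome (Entrez 74469, chromosome X, 134460116 to 134476505), stood at 3.37, 3.04 and 2.82 CPM in H4WT, 1.21, 1.57 and 1.77 in H4K91R and 2.23, 2.84 and 1.82 in H4K91Q. Every H4K91R library was below every other library, and the top H4K91Q library reached just into the H4WT range. Taf7l fell by 1.05 ± 0.25 on the log2 scale in H4K91R (adjusted p = 0.00377, edgeR), and its change in H4K91Q was -0.41 ± 0.22 (adjusted p = 0.144). The gene for its body-wide relative Taf7 fell by 0.27 on the log2 scale in H4K91R (adjusted p = 0.0183) and was higher in H4K91Q than in H4K91R by 0.32 ± 0.08 (adjusted p = 0.0413). Of 20 body-wide relatives of members tested, 3 rose and 5 fell in H4K91R, 4 rose and 4 fell in H4K91Q, and Taf7 was the 1 that differed between the mutants. Over all tested genes 20.9% rose and 25.1% fell in H4K91R, 22.5% rose and 23.8% fell in H4K91Q, and 5.16% differed between the mutants.

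Rhox5, a homeobox gene of the X-linked Rhox cluster (Entrez 18617, chromosome X, 37754608 to 37808878), gave more counts than any other member. It stood at 146, 159 and 141 CPM in H4WT, 113, 108 and 139.6 in H4K91R and 128, 151 and 126 in H4K91Q. H4K91R replicate 3 came close to the lowest H4WT library, and H4K91Q overlapped both. Rhox5 fell by 0.31 ± 0.10 on the log2 scale in H4K91R (adjusted p = 0.0236, edgeR). That call ended with library size scaling (0.324) and without any of H4WT replicates 1 and 2 and H4K91R replicates 1 and 2 (0.0505, 0.0957, 0.0804 and 0.107). Its cluster neighbour Rhox13 had 13 counts over all 9 libraries, of which 10 were in H4K91Q replicate 2, and 0 in H4K91R, which allows at most 0.0745 CPM over the 3 H4K91R libraries together.

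Tex13, a testis protein encoded on the X chromosome, was at 5.53, 5.59 and 5.63 CPM in H4WT, 4.43, 4.56 and 4.04 in H4K91R and 4.33, 5.08 and 3.98 in H4K91Q. Both mutants lay below H4WT in every library, with log2 changes of -0.36 ± 0.16 and -0.32 ± 0.15, but neither was called (adjusted p = 0.0786 and 0.0962, edgeR).

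Several members are testis counterparts of proteins that every cell uses. Slc25a31, the testis ADP/ATP carrier (Entrez 73333, chromosome 3, 40708871 to 40726094), stood at 3.01, 3.22 and 3.06 CPM in H4WT, 2.01, 1.34 and 1.38 in H4K91R and 2.53, 2.54 and 2.05 in H4K91Q. The 3 groups did not overlap. Slc25a31 fell by 0.95 ± 0.23 on the log2 scale in H4K91R (adjusted p = 0.0041, edgeR), and its change in H4K91Q was -0.39 ± 0.20 (adjusted p = 0.138). The carriers of body cells, Slc25a4 and Slc25a5, had changes of -0.13 ± 0.08 and 0.06 ± 0.07 in H4K91R, neither of them called.

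Rpl10l, an autosomal copy of the X-linked ribosomal protein gene Rpl10 that acts in male meiosis (Entrez 238217, chromosome 12, 66283379 to 66284401), differed most between the mutants among the 26 tested members. It stood at 0.361, 1.44 and 0.857 CPM in H4WT, 0.691, 0.551 and 0.197 in H4K91R and 1.89, 2.44 and 1.82 in H4K91Q. Its counts were 3, 39 and 7 in H4WT, 12, 7 and 2 in H4K91R and 44, 49 and 31 in H4K91Q, so H4WT replicate 1 and H4K91R replicate 3 did not exceed the 3 counts of the detection limit. All H4K91Q libraries were above all others, while H4WT and H4K91R overlapped. H4K91Q exceeded H4K91R by 1.98 ± 0.41 (adjusted p = 0.0187, edgeR), and the call ended without H4K91R replicate 2 (0.0743) or H4K91Q replicate 2 (0.0784). Against H4WT, Rpl10l rose by 0.95 ± 0.36 in H4K91Q (adjusted p = 0.0445), which 8 of 19 alternatives ended, DESeq2 (0.0730) and thinning (0.116) among them. That change was 1.74 without H4WT replicate 2 and 0.69 without H4WT replicate 1 (adjusted p = 0.0104 and 0.117). In H4K91R its change was -1.02 ± 0.48 (adjusted p = 0.0976), not called. Rpl10 itself had changes of -0.09 ± 0.06 in H4K91R and 0.10 ± 0.06 in H4K91Q, neither called. Of the 31-base words of Rpl10l, 23.4% also occur in Gm14460.

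The tubulins Tuba3a and Tuba3b, alpha tubulins of the testis, could not be told apart well. Of the 31-base words of Tuba3a 51.5% are shared with other genes, mostly Tuba3b, and of those of Tuba3b 43.1%, mostly with Tuba3a. Tuba3a was at 1.32, 0.852 and 0.612 CPM in H4WT, 0.748, 1.97 and 1.38 in H4K91R and 1.11, 1.05 and 1.05 in H4K91Q. Tuba3b was at 0.601, 0.852 and 0.49, then 0.863, 0.393 and 0.197, then 0.472, 0.648 and 0.586 CPM. The groups overlapped for both, and neither was called in any comparison. Tuba1a, an alpha tubulin abundant in neurons, rose in both mutants (0.40 ± 0.07 and 0.24 ± 0.07, edgeR, adjusted p = 3.98e-04 and 0.0129). Tktl2, a transketolase-like gene, had 11 counts over the 9 libraries and never more than 3 in one.

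The X-linked Xlr genes are lymphocyte-regulated genes in near-identical copies. Xlr3a (Entrez 22445, chromosome X, 73086293 to 73097095) was at 9.62, 11 and 11.8 CPM in H4WT, 6.96, 7.24 and 8.86 in H4K91R and 8.28, 9.72 and 9.61 in H4K91Q. H4K91R lay below H4WT in every library, and H4K91Q overlapped both. Xlr3a fell by 0.50 ± 0.14 on the log2 scale in H4K91R (adjusted p = 0.00974, edgeR), a call that ended with library size scaling (0.0776). Xlr3b was at 2.77, 2.96 and 4.04, then 2.13, 3.85 and 4.04, then 2.53, 4.23 and 2.93 CPM, with changes of 0.02 ± 0.29 and 0.02 ± 0.27. Xlr4a was at 1.44, 4.0 and 2.45, then 1.67, 1.49 and 3.25, then 1.59, 2.34 and 1.99 CPM, with changes of -0.51 ± 0.36 and -0.57 ± 0.34. The groups overlapped for Xlr3b and Xlr4a, and neither was called in any comparison. Of their 31-base words 60.2% (Xlr3a), 69.0% (Xlr3b) and 84.8% (Xlr4a) occur in other genes, so the division of reads among copies, and with it the fall of Xlr3a, is uncertain.

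The last members were at or near the detection limit. Tex101, a surface protein of germ cells, had 0, 7 and 2 counts in H4WT, 2, 1 and 0 in H4K91R and 2, 6 and 2 in H4K91Q. Magea4, a cancer-testis gene on the X chromosome, had no count in any library, which allows at most 0.0690, 0.0745 and 0.0496 CPM over the pooled libraries of H4WT, H4K91R and H4K91Q. Together with Hormad1, Hormad2, Rhox13 and Tktl2 they make up the 6 members that could not be tested.

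By chromosome, 4 of the 7 tested X-linked members (Tex11, Taf7l, Rhox5 and Xlr3a) fell in H4K91R, where 21.1% of 544 tested X-linked genes fell and 22.8% rose. Of the 19 tested autosomal members 5 fell and 2 rose, where 25.3% of 14194 tested autosomal genes fell and 20.9% rose. Whether the X-linked members differed from the autosomal ones was not tested. Among the members with a promoter window, the E-box lay in 5 of the 7 that fell, in both that rose, in 5 of 15 tested but not called and in 1 of 6 not tested. The word lay in 43.3% of all member windows and 9.91% of those of tested genes. Piwil2 and Tex11, which fell, had no window. Members with the word were found among those that fell and those that rose, while Rhox5 and Xlr3a fell with no E-box in their windows. Whether the word goes with a change or its direction was not tested.

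Of 14 tested piRNA and nuage genes outside the list, 2 rose and 4 fell in H4K91R and 4 rose and 3 fell in H4K91Q. For this and the lists below, over all tested genes 20.9% rose and 25.1% fell in H4K91R. In H4K91Q 22.5% of all rose and 23.8% fell, and between the mutants 2.37% were higher in H4K91Q and 2.78% lower. Whether any list departed from these shares was not tested. Tex15, which directs methylation of transposons in male germ cells, fell in both (log2 changes -0.69 ± 0.14 and -0.73 ± 0.14, edgeR, adjusted p = 0.00142 and 8.38e-04). Ddx25, a testis RNA helicase, rose in both (0.81 ± 0.15 and 0.85 ± 0.15, adjusted p = 7.67e-04 and 4.47e-04). Tdrd12 and Rnf17, Tudor-domain proteins, were higher in H4K91Q than in H4K91R (1.61 ± 0.30 and 0.61 ± 0.13, adjusted p = 0.0104 and 0.0215). Against H4WT, Tdrd12 rose in H4K91Q (1.45 ± 0.29, adjusted p = 0.00121) and Rnf17 fell in H4K91R (-0.52 ± 0.14, adjusted p = 0.00769). Of 17 tested meiosis genes outside the list, 2 rose and 2 fell in H4K91R and 4 rose in H4K91Q. Syce2, of the central element of the synaptonemal complex, rose in both (0.52 ± 0.16 and 0.75 ± 0.15, adjusted p = 0.0161 and 0.00125), and Tex14, of germ cell bridges, rose in H4K91Q (1.57 ± 0.36, adjusted p = 0.00312; 0.42 ± 0.43 in H4K91R, not called). In H4WT replicate 3 Tex14 stood at 0.245 CPM, below the 0.367 CPM of 3 counts there. The synaptonemal gene 4930447C04Rik, also named Six6os1, fell in H4K91R (-0.69 ± 0.21, edgeR, adjusted p = 0.0175) and was higher in H4K91Q than there (0.91 ± 0.20, adjusted p = 0.0221).

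Of 15 tested genes in a list of further cancer-testis and X-linked testis genes, 2 rose and 5 fell in H4K91R, 5 rose and 3 fell in H4K91Q, and 3 were higher in H4K91Q than in H4K91R. Tex19.1, which protects germ cells from transposons, fell in both mutants (-0.66 ± 0.11 and -0.46 ± 0.11, edgeR, adjusted p = 3.28e-04 and 0.00338). Zcwpw1, a reader of histone marks in meiosis, rose in both mutants (0.65 ± 0.16 and 0.78 ± 0.16, adjusted p = 0.00541 and 0.00131). Rhox6, of the same cluster as Rhox5, rose in H4K91Q (0.75 ± 0.17, adjusted p = 0.00237; 0.29 ± 0.17 in H4K91R, not called). Hsf2bp, a meiotic recombination factor, and D1Pas1, a testis relative of Ddx3x, were higher in H4K91Q than in H4K91R (1.70 ± 0.35 and 1.97 ± 0.46, adjusted p = 0.018 and 0.0302). Against H4WT, Hsf2bp rose in H4K91Q (1.55 ± 0.34, edgeR, adjusted p = 0.00249) and D1Pas1 fell in H4K91R (-1.71 ± 0.50, adjusted p = 0.0134). D1Pas1 stood at 0.157 and 0.295 CPM in H4K91R replicates 2 and 3, where 3 counts correspond to 0.236 and 0.295 CPM. Hsf2bp stood at 0.245 CPM in H4WT replicate 3, below the 0.367 CPM of 3 counts there.

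Of 9 tested transcription regulators of germ cells, 1 rose and 4 fell in H4K91R and 3 rose and 3 fell in H4K91Q. Taf4b, a regulator of gametogenesis, fell in both mutants (-0.83 ± 0.16 and -0.67 ± 0.15, edgeR, adjusted p = 7.29e-04 and 0.00232). Sohlh2, another such regulator, fell in both (-1.04 ± 0.20 and -0.53 ± 0.18, adjusted p = 7.29e-04 and 0.0265), and so did Mybl1, which drives meiotic genes (-0.80 ± 0.15 and -0.92 ± 0.15, adjusted p = 8.98e-04 and 2.93e-04). Tfap2c, a factor of primordial germ cells and trophoblast, stood at 4.57, 5.04 and 4.65 CPM in H4WT, 2.88, 3.54 and 3.64 in H4K91R and 6.9, 9.17 and 9.73 in H4K91Q, with no overlap, and differed between the mutants by 1.37 ± 0.17 (adjusted p = 0.00161). Prdm1, a factor of germ cell specification and of other lineages, rose in H4K91Q (1.66 ± 0.27, adjusted p = 2.93e-04) and was higher there than in H4K91R (1.35 ± 0.26, adjusted p = 0.0141).

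Among the genes that write DNA methylation, Dnmt3b and Dnmt3l moved in opposite directions in the mutants. Of 13 tested DNA methylation genes 3 rose and 4 fell in H4K91R, 5 rose and 1 fell in H4K91Q, and 3 were higher in H4K91Q than in H4K91R. Dnmt3b, a de novo methyltransferase, stood at 24, 35.6 and 26.6 CPM in H4WT, 10.4, 20.8 and 16.4 in H4K91R and 57.6, 67.9 and 71.4 in H4K91Q. The groups did not overlap, and Dnmt3b fell in H4K91R (-0.91 ± 0.21, edgeR, adjusted p = 0.00317), rose in H4K91Q (1.15 ± 0.19, adjusted p = 2.99e-04) and differed between the mutants by 2.07 ± 0.20 (adjusted p = 4.29e-04). Dnmt3l, the cofactor of the de novo enzymes, stood at 4.45, 10.3 and 4.9 CPM in H4WT, 0.633, 2.91 and 3.05 in H4K91R and 10.8, 23.6 and 15.4 in H4K91Q, and fell in H4K91R (-1.83 ± 0.50, adjusted p = 0.00854), rose in H4K91Q (1.19 ± 0.37, adjusted p = 0.0187) and differed between the mutants by 3.03 ± 0.45 (adjusted p = 0.00391). Dnmt3a, the other de novo enzyme, rose in both mutants (0.38 ± 0.07 and 0.38 ± 0.07, adjusted p = 8.63e-04 and 8.10e-04). Hells, a chromatin remodeller needed for methylation, fell in H4K91R (-0.34 ± 0.07, adjusted p = 0.00123), and its partner Cdca7 rose in both mutants (0.36 ± 0.08 and 0.56 ± 0.08, adjusted p = 0.00218 and 6.78e-05). Dnmt1, the maintenance enzyme, was added after its values were seen and had changes of 0.10 ± 0.08 and -0.02 ± 0.08, neither called. Its partner Uhrf1, added in the same way, rose in both mutants (0.23 ± 0.07 and 0.22 ± 0.07, adjusted p = 0.0182 and 0.0241). DNA methylation itself was not measured in these libraries.

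Of 15 tested genes on the list for PRC1.6 and its partners, 2 rose and 4 fell in H4K91R, 3 rose and 2 fell in H4K91Q, and between the mutants 0 were called by edgeR, DESeq2 or limma-voom, with 3 higher in H4K91Q at an unadjusted edgeR p below 0.05. Ring1, a ubiquitin ligase of the complex, rose in both mutants (0.69 ± 0.11 and 0.65 ± 0.10, edgeR, adjusted p = 1.59e-04 and 2.30e-04), as did Cbx1, a heterochromatin protein (0.27 ± 0.07 and 0.45 ± 0.07, adjusted p = 0.00689 and 1.59e-04). E2f6, which reads the E2F word, had a change of 0.04 ± 0.07 in H4K91R and one within ± 0.07 (SE) of 0 in H4K91Q, neither called. Mga and Max, which read the E-box, fell in H4K91R (-0.32 ± 0.09 and -0.21 ± 0.07, adjusted p = 0.0124 and 0.0206). In H4K91Q their changes were -0.24 ± 0.09 and -0.16 ± 0.07 (adjusted p = 0.0499 and 0.0567), of which that of Mga was called. These 3 were added after their values were seen, as the readers of the words counted in the promoters. Of 18 tested genes in the list of H3K9 methylation and other regulators of germline silencing, 1 rose and 4 fell in H4K91R, 2 rose and 1 fell in H4K91Q, and 3 were higher in H4K91Q than in H4K91R. Zbtb16, a transcription factor of stem cells in the testis and of other tissues, rose in both mutants (0.85 ± 0.19 and 0.75 ± 0.19, adjusted p = 0.00293 and 0.00569).

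Dppa2 and Dppa4, which in stem cells and the early embryo activate germline genes, were low in H4K91R. Dppa2 stood at 5.29, 6.37 and 6.49 CPM in H4WT, 1.5, 2.04 and 1.97 in H4K91R and 4.85, 7.37 and 4.22 in H4K91Q. It fell in H4K91R (-1.75 ± 0.25, edgeR, adjusted p = 8.80e-05) and was higher in H4K91Q than there (1.6 ± 0.24, adjusted p = 0.00439). Dppa4 stood at 1.92, 2.63 and 2.33 CPM in H4WT, 0.345, 1.65 and 0.394 in H4K91R and 3.6, 8.12 and 6.45 in H4K91Q. It fell in H4K91R (-1.6 ± 0.52, adjusted p = 0.0218), rose in H4K91Q (1.34 ± 0.37, adjusted p = 0.00955) and differed between the mutants by 2.94 ± 0.45 (adjusted p = 0.00422). Dppa2, Dppa4, Dnmt3b and Dnmt3l are also genes of pluripotent cells, and the summed pluripotency markers given above were also lowest in H4K91R. Whether cells of that state carried the germline transcripts was not tested.

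**Figure D4:**
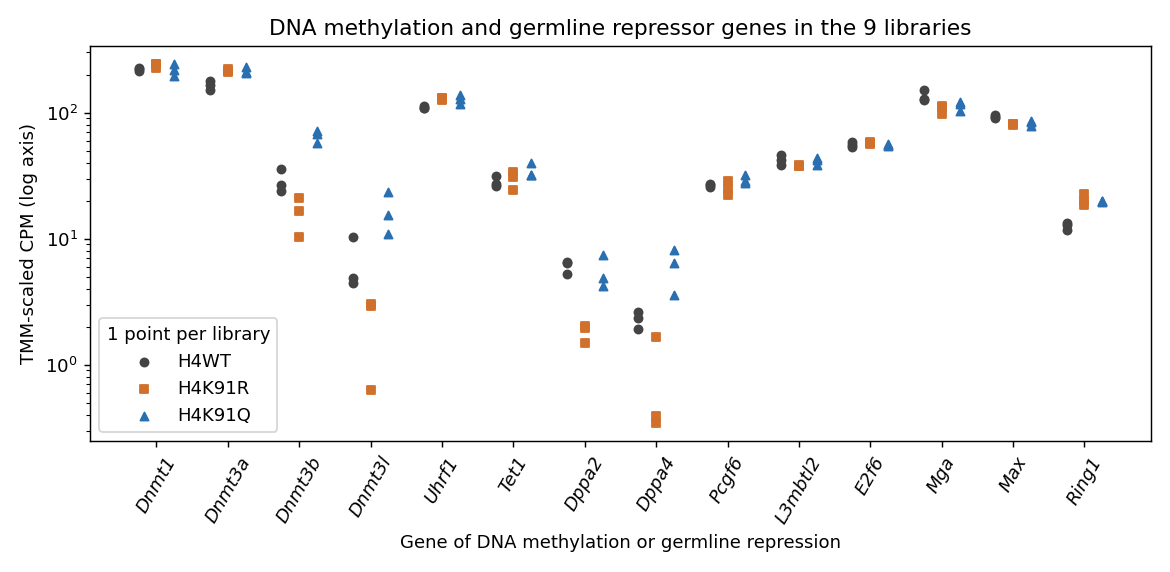
TMM-scaled CPM on a log axis (y) of 14 genes of DNA methylation and of the repression or activation of germline genes (x). Those outside the naming rule were chosen after their values were seen. Each library is 1 point, in H4WT (circles), H4K91R (squares) and H4K91Q (triangles). Dppa2 and Dppa4 activate germline genes and are not repressors. Dnmt3b separates the 3 groups, with H4K91Q highest and H4K91R lowest, while the E2f6 libraries lie close together.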

How the data were processed

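RNA was isolated with QIAGEN RNeasy and libraries were built with NEBNext Ultra II, per the labels' protocols. The authors deposited a table of expected counts per Entrez gene, all of them whole numbers, for which the submitters' processing notes name Salmon 0.8.2, genome build mm10 and DESeq2 (no version or role). Annotation and strand setting were not found in the labels or the file. Rounding the counts changed nothing.

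Symbols, coordinates and promoters came from RefSeq on GRCm38.p6 (24045 of 24100 IDs matched), and exon overlaps and shared 31-base words from GENCODE M21 on GRCm38. After filterByExpr (minimum count 10) in edgeR 4.0.16 (R 4.3.3) 14761 genes were kept, and TMM factors ran from 0.911 to 1.06. A quasi-likelihood model of the 3 groups was fitted to the 9 libraries together and tested on simulated data. Tests were two-sided, with Benjamini-Hochberg adjustment over all tested genes, and SEs were derived from each log2 change and its F statistic.

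The members and gene lists were chosen with earlier results of these data known. By rule, values in every library were given for members called in any comparison or above 3 counts in all 3 libraries of a group, and counts for the others. Each list contributed up to 2 called genes per comparison, those of lowest adjusted p with a mean of 1 CPM or more, and relatives were named beside members. Genes named outside this rule are said to be so. Same-numbered libraries deviated together for H4WT and H4K91Q (correlations across genes 0.172, 0.198 and 0.141), a hint from the data that the labels do not explain, but not for H4WT and H4K91R (0.174, 0.0107 and -0.163) or the mutants (0.198, -0.0518 and -0.0257). Larger values also arose with different numbers, 0.265 for H4WT replicate 2 with H4K91R replicate 3 and 0.223 for H4K91R replicate 3 with H4K91Q replicate 2. Between H4WT and H4K91Q the highest value with different numbers was 0.0359. No 2 libraries of a group agreed within sampling noise. Alternatives were RLE and library size scaling, DESeq2 1.42.0, limma-voom (limma 3.58.1), no filter, a filter of 1 CPM in 3 libraries, the compared groups only, a replicate block, thinning to the smallest total and leaving out each library. A replicate block within the compared groups was chosen after seeing the data.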

Additional observations from a re-analysis of the deposited data

Results flagged for a closer look

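The effects of the mutants differed for 4 members by the test of H4K91Q against H4K91R (edgeR, adjusted p below 0.05). Ddx4 was higher in H4K91Q by 0.58 on the log2 scale (adjusted p = 0.0154), in 3 of 3 libraries. Piwil2 was higher by 1.15 (adjusted p = 0.0413), Rpl10l by 1.98 (adjusted p = 0.0187) and Tex11 by 0.69 (adjusted p = 0.0416), each with all 3 H4K91Q libraries above all 3 H4K91R libraries. None of the 4 calls held in all 19 alternatives. The number ending the call was 3 for Ddx4, 10 for Piwil2, 2 for Rpl10l and 10 for Tex11.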

How the results depend on the processing

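Over the alternatives, 9 to 12 members were called in H4K91R against H4WT (11 as reported), and the gene counts of both comparisons with H4WT stayed within 1.5 times. Of the 11 calls in H4K91R 9 held in all 19 alternatives, and those of Rhox5 and Xlr3a did not. Of the 5 in H4K91Q those of Brdt and Stag3 held, and of the 4 between the mutants none did. No called change reversed. DESeq2 called 3 members in H4K91Q against H4WT, and limma-voom and thinning called 2 each between the mutants. Leaving out each library gave 10 to 11 members in H4K91R against H4WT, 3 to 4 in H4K91Q against H4WT, 0 to 4 between the mutants, and 188 to 1093 genes between the mutants. With the replicate block 11, 5 and 4 members were called in H4K91R and H4K91Q against H4WT and between the mutants. The block ended the call of Sycp3 (adjusted p = 0.0591) and added Stk31 (0.0432) in H4K91Q against H4WT, and changed no other member call. Within H4WT and H4K91Q alone the block kept Sycp3 (0.0417), again added Stk31 (0.0481) and called 6 members, 4 risen and 2 fallen. Within H4WT and H4K91R it ended the call of Rhox5 (0.0548), where replicate numbers did not pair the libraries. Among the tested members Fkbp6, Rpl10l, Mov10l1 and Tuba3b had libraries at or below 3 counts, as did Hormad1 and the other untested members. The part of depth in the spread of these members was not tested.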
